A study of Mus musculus with 9 samples.

Results

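The rows described here were those whose reads nearly vanished in EL4 tumours made from HVEM-KO cells. The rows were chosen by their measured levels in these 9 libraries: a row was kept when it had at least 30 reads summed over the 5 Vec libraries and its lowest Vec level was at least 2 times the highest HVEM-KO level. Levels are in CPM, the reads of a row scaled to a fixed total number of reads per library. Of 56923 rows in the table, 12866 had at least 30 Vec reads and 22 met the rule. Because the comparison of Vec with HVEM-KO tumours chose these rows, that difference is described in them and not tested.

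The EL4 line derives from a T-cell lymphoma of the mouse. The receptor HVEM, encoded by Tnfrsf14, belongs to the TNF receptor family and binds the inhibitory receptor BTLA among others. RNA was sequenced from 5 tumours of genotype Vec and 4 of genotype HVEM-KO, all labelled as EL4 tumour tissue. No host, age, treatment or clone is named in the labels, nor what the Vec genotype carries. Nothing in the labels ties a library to an animal of its own, so the spread between libraries may be partly technical. Libraries held 5532155 to 8205620 reads, and the most alike pair within a group still differed by more than sampling noise (chi-square per degree of freedom 11.2). The knockout itself could not be checked: the row named Tnfrsf14 had 1 read in all 9 libraries, and the row inferred to overlap Tnfrsf14 exons, deposited as Ttc34, had an unsettled position (posterior 0.974), with 52.0 ± 16.2 CPM in Vec tumours against 47.5 ± 5.31 CPM in HVEM-KO tumours.

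A row's name is not always the gene it counted. The read totals of nuclear rows followed the exons of GRCm38 more closely when each row was moved along its chromosome by an amount held constant over long stretches (median correlation across rows 0.73 after moving, as chosen for the best fit, and 0.44 before). That displacement was inferred from the counts over 99 stretches, and 16 of the 22 rows lay where it was settled. A row is therefore called by the symbol of its deposited identifier, and the gene it counted is named only where the inference placed it. At the displaced position 5 rows overlapped exons of a single protein-coding gene, though not with all their bases: Dntt, Wif1, Pou4f3, B130006D01Rik and Toporsl. Another 4 lay on exons of non-coding genes or pseudogenes, 4 in introns of protein-coding genes, and 3 outside protein-coding genes and clear of annotated exons. For the other 6 the position was uncertain.

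Of the genes counted, 2 carried most of the signal, and both have known roles. Dntt encodes terminal deoxynucleotidyl transferase, the DNA polymerase that adds bases without a template at the joints of rearranging antigen receptor genes and that is made in immature T and B lymphocytes. Wif1 encodes Wnt inhibitory factor, a secreted protein that binds Wnt ligands outside the cell and keeps them from their receptors. The rows on these genes held 62.7% of all reads of the 22 rows in Vec tumours.

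The exons below are shown because they are the coding sequence that these rows overlapped at the inferred displacement. Both come from the GENCODE vM21 transcripts of GRCm38, plus strand: exon 8 of Dntt (109 bases, chr19:41047529-41047637) and exon 2 of Wif1 (140 bases, chr10:121034966-121035105), both coding throughout.
Dntt exon 8: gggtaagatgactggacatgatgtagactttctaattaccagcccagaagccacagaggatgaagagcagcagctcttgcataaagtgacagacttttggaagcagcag
Wif1 exon 2: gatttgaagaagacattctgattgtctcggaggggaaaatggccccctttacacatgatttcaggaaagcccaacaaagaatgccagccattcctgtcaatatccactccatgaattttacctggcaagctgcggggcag
The row named Dntt covered 109 bases of Dntt exons at the inferred displacement, and 12 to 110 bases when that was moved by up to 100 bp. It reached 1450 bases within the gene, most of them in introns, so its reads need not come from this exon. The row on Wif1, deposited under the identifier of 4930432O09Rik, covered 125 bases of the Wif1 exon, or 25 to 140 bases with the same tolerance. It reached 1986 bases within the gene, again mostly in introns, so its reads need not come from this exon either.

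The promoters of both genes are shown because these genes carried most of the reads and were low over more than 1 row each. They run from 250 bases before to 50 bases after the RefSeq start on GRCm38.p6, plus strand, at chr19:41029025-41029324 for Dntt and chr10:121033754-121034053 for Wif1. Capitals mark the dinucleotide CG, which reads the same on both strands.
Dntt promoter: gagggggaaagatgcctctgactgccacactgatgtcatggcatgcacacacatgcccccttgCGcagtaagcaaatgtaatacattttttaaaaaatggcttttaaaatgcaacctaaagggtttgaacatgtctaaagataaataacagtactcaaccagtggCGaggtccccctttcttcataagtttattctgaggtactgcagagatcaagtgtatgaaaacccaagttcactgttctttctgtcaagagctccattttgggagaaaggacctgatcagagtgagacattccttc
Wif1 promoter: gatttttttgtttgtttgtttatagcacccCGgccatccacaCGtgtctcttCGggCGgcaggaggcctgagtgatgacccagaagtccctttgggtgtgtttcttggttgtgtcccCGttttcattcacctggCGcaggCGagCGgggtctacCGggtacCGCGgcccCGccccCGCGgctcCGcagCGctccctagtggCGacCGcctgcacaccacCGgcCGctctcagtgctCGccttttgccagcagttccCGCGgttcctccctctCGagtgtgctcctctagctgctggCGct
The Dntt promoter held 2 CG and had a GC content of 42.3%, and the Wif1 promoter held 25 CG and had a GC content of 63.0%. Of the 32851 RefSeq promoters, 94.6% held at least 1 CG, with a median of 7, and 23.3% held as few as Dntt or fewer. The letters TATAAA, searched on both strands, were in the Wif1 promoter (on the minus strand), were not in the Dntt promoter, and occurred in 13.6% of all promoters. The promoters of the 2 genes thus differed in base composition. No measurement here bears on these motifs.

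The row named Dntt (ENSMUSG00000025014.14) had the most reads of the 22. It was at 40.2, 26.1, 56.4, 33.4 and 62.4 CPM in Vec 1 to 5 and at 2.49, 6.17, 12.3 and 0.181 CPM in HVEM-KO 1 to 4. Every Vec library was thus above every HVEM-KO library, and the HVEM-KO libraries were far apart among themselves, from 1 read in HVEM-KO 4 to 77 in HVEM-KO 3. The mean fell from 43.7 ± 15.3 CPM (SD, n = 5) to 5.29 ± 5.29 CPM (SD, n = 4), with 12.1% left. The edgeR log2 fold change was -3.06 ± 0.65 (SE). The lowest Vec library was 2.12 times the highest HVEM-KO library, close to the limit of the rule. Dntt lies on chromosome 19 from 41029275 to 41059525 in GRCm38.

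Another row within Dntt, which was not among the 22, was lower too. This row, deposited as Opalin, lay in Dntt introns at the displaced position, with no exonic overlap. In Vec 1 to 5 it was at 2.25, 2.64, 4.02, 3.68 and 6.46 CPM, and in HVEM-KO 1 to 4 at 0.713, 0.317, 1.60 and 0 CPM. Both rows were highest in HVEM-KO 3 and lowest in HVEM-KO 4 among the HVEM-KO tumours, and highest in Vec 5 among the Vec tumours. Their lowest Vec libraries differed, Vec 2 for Dntt and Vec 1 for Opalin, and HVEM-KO 1 and HVEM-KO 2 changed order. Opalin had only 4, 2, 10 and 0 reads in HVEM-KO 1 to 4. On the other side, the row deposited as Blnk was 0.38 higher in HVEM-KO tumours on the log2 scale (mean CPM + 0.5).

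The row on Wif1 (ENSMUSG00000112846.2, deposited as 4930432O09Rik) was at 14.5, 9.52, 32.1, 13.2 and 19.7 CPM in Vec 1 to 5 and at 0, 4.11, 2.40 and 0.723 CPM in HVEM-KO 1 to 4. The groups did not overlap, and HVEM-KO 1 had no read. The mean was 17.8 ± 8.77 CPM in the Vec group and 1.81 ± 1.84 CPM with HVEM-KO, with 10.2% left (edgeR log2 fold change -3.30 ± 0.68, SE). Wif1 lies on chromosome 10 from 121033960 to 121100650.

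The row that covers the other end of Wif1, deposited as Tbc1d30, overlapped 893 bases of its exons and ran in parallel. It was at 92.7, 51.3, 151, 80.4 and 129 CPM in Vec 1 to 5 and at 8.37, 30.2, 15.8 and 8.13 CPM in HVEM-KO 1 to 4. It did not meet the rule, since its lowest Vec library was less than 2 times the highest HVEM-KO library. In both rows Vec 3 was the highest and Vec 2 the lowest of the Vec libraries, and HVEM-KO 2 the highest of the HVEM-KO libraries. The lowest HVEM-KO library was HVEM-KO 1 in 4930432O09Rik and HVEM-KO 4 in Tbc1d30. The row deposited under the name Wif1 itself counted another place, and was at 16.9 ± 2.50 CPM in the Vec group, against 17.4 ± 3.35 CPM with HVEM-KO.

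**Figure D1:**
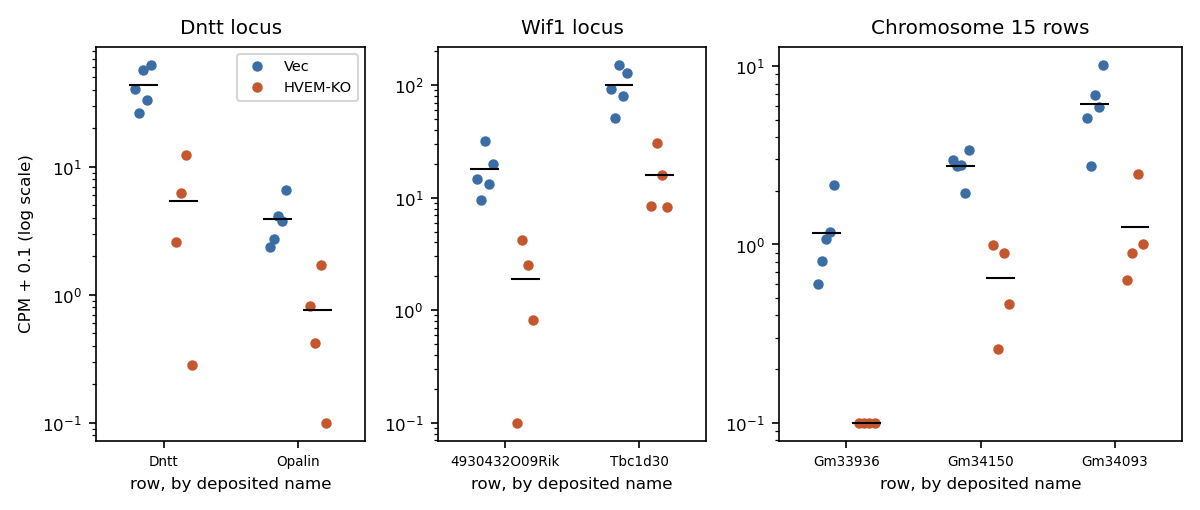
CPM + 0.1 on a log scale in each library for rows at Dntt, at Wif1 and on chromosome 15, by deposited name, with Vec in blue, HVEM-KO in orange and bars at the group means. The groups do not overlap in any of these 7 rows. The 4 that met the rule are Dntt, 4930432O09Rik, Gm33936 and Gm34150, and in Opalin, Tbc1d30 and Gm34093 the gap between the groups is smaller than 2 times.

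The other 3 rows on protein-coding exons had few reads. The row deposited as Lars (ENSMUSG00000024493.10) overlapped 200 bases of Pou4f3, which encodes a transcription factor known from the hair cells of the inner ear, on chromosome 18 from 42394539 to 42397249. It had 20, 13, 28, 13 and 11 reads in Vec 1 to 5 and 4, 2, 1 and 0 reads in HVEM-KO 1 to 4. The tumours of the HVEM-KO group thus kept 12.5% of the mean Vec level of this row, 2.38 ± 0.644 CPM. Only 234 of the row's 5368 exon bases lay within Pou4f3, so the reads need not come from that gene. The row deposited as Abi3 (ENSMUSG00000018381.16) overlapped 692 bases of B130006D01Rik on chromosome 11, from 95723587 to 95726710. It had 17, 6, 8, 10 and 26 reads in the Vec libraries and 0, 2, 1 and 0 in the HVEM-KO libraries, where 6.09% of the level was left. The row has 4153 exon bases, most of them outside B130006D01Rik. In GRCm38 that gene lies within the gene Zfp652 (95712673 to 95835115). The reads of the row thus need not come from B130006D01Rik.

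Toporsl, on chromosome 4 from 52596274 to 52612430, was the only placed row besides Dntt whose name was also the gene it counted. It had 11, 7, 8, 3 and 10 reads in Vec 1 to 5 and 0 in each HVEM-KO library. For B130006D01Rik another row, deposited as Zfp652, overlapped more of the gene, at 2359 of the row's 15444 exon bases. It had 13, 7, 8, 4 and 6 reads in Vec and 3, 3, 1 and 6 in HVEM-KO libraries. Its mean was 1.08 ± 0.376 CPM in the Vec group and 0.563 ± 0.384 CPM with HVEM-KO, with 52.3% left, and its groups overlapped.

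In 6 of the 22 rows no HVEM-KO library had a read. For such rows a fold is given against 3 reads over the 4 HVEM-KO libraries together, a floor of 0.126 CPM, and is a lower bound for counting error only, since copies made by PCR are not independent molecules. The row deposited as 9430021M05Rik (ENSMUSG00000054457.7, chromosome 2), in an intron of Ptprt, a receptor-type tyrosine phosphatase gene, was the deepest of them. It had 48, 5, 24, 19 and 47 reads in Vec 1 to 5, against 0 in all 4 HVEM-KO libraries, and was at least 32.5-fold lower in HVEM-KO tumours. Its level in Vec tumours was not even: Vec 5 was 8.40 times Vec 2.

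Toporsl and 3 more of the rows without an HVEM-KO read had 32 to 39 reads over all Vec libraries. Gm33936 had 4, 4, 8, 7 and 13 reads, at an uncertain position. Gm16081, in an intron of Thsd7b, had 10, 3, 4, 5 and 12 reads. Gm4540, outside protein-coding genes, had 8, 2, 4, 7 and 11 reads. The bounds for these 3 rows and for Toporsl ran from at least 7.28-fold lower for Gm4540 to at least 8.87-fold lower for Toporsl. In none of these 4 did a Vec library lack reads, but single libraries came down to 2 reads.

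Among rows that kept some reads, Gm22916 (chromosome 6), outside protein-coding genes, had 18, 3, 60, 34 and 20 reads in Vec 1 to 5, against 1, 0, 0 and 1 in the HVEM-KO libraries, so that 2.43% was left. Gm5441 (chromosome 12), at an uncertain position, had 8, 18, 23, 18 and 23 reads in Vec and 0, 1, 1 and 0 in HVEM-KO libraries. It had the widest gap of the 16 rows with HVEM-KO reads, with the lowest Vec library at 6.25 times the highest HVEM-KO library. Its lowest Vec library was Vec 1, while Vec 2 to 5 were between 2.76 and 3.62 CPM. AC141429.2 (chromosome 18), also at an uncertain position, had 12, 5, 33, 19 and 7 reads in Vec libraries and 0, 0, 0 and 2 in HVEM-KO libraries.

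The remaining rows with more reads kept a larger share. Kif26b (chromosome 1), which touched 68 bases of the pseudogene Gm34176, had 23, 15, 23, 18 and 33 reads in Vec and 1, 8, 4 and 4 reads in HVEM-KO libraries, with 21.6% left. Prob1 (chromosome 18, position uncertain) had 17, 12, 17, 13 and 27 reads against 4, 4, 3 and 5, with 27.2% left, the largest share of the 22. In both rows Vec 5 stood above 4 near-equal Vec libraries. Faf1 (chromosome 4), on 87 bases of the non-coding 9630013D21Rik, had 18, 6, 11, 7 and 8 reads against 1, 2, 1 and 2. The 5 rows not given by library, Gm42435, Acadm, Kbtbd13, Gm10143 and Ubp1, had 33 to 42 Vec reads and 1 to 3 HVEM-KO reads each.

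**Figure D2:**
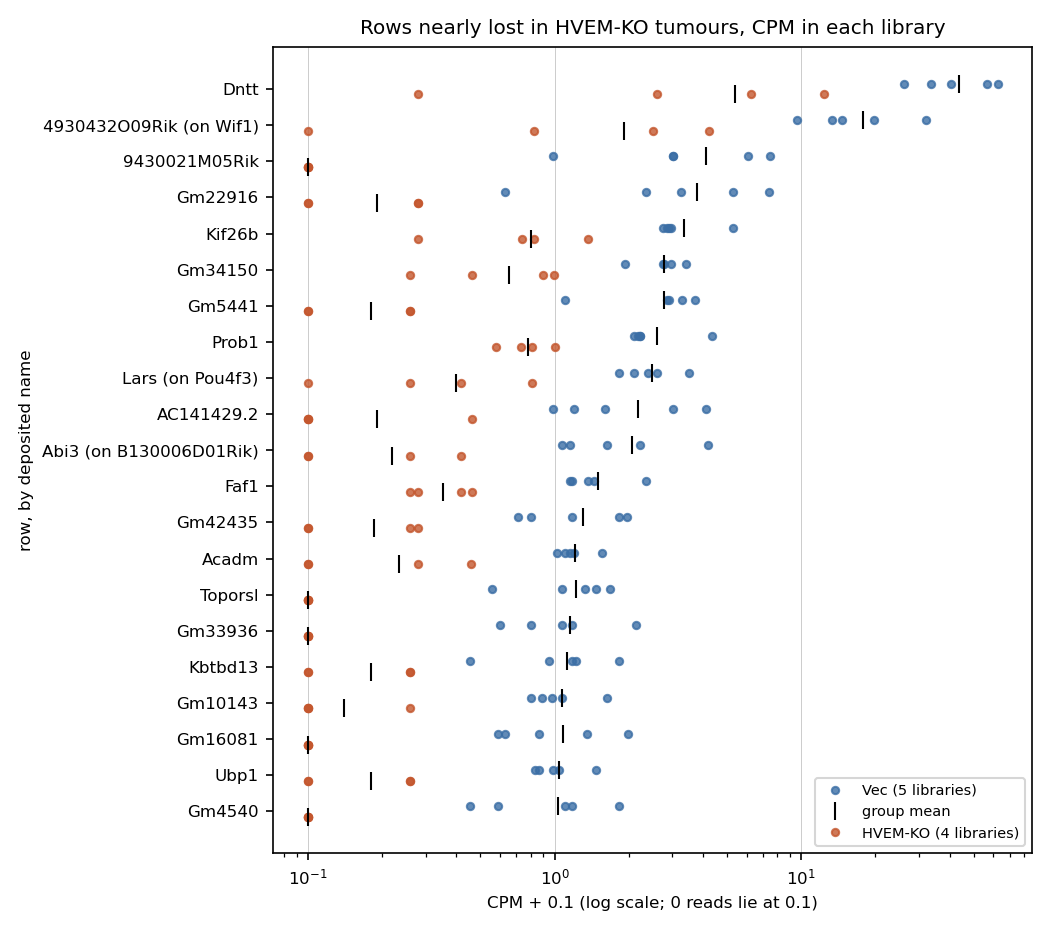
CPM + 0.1 on a log scale in each of the 9 libraries for 21 of the 22 rows, ordered by their Vec reads, with Vec in blue, HVEM-KO in orange and black marks at the group means. Rows without reads lie at 0.1, and in 5 of the rows drawn all 4 HVEM-KO libraries lie there.

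The 22 rows were mostly thin. Their Vec reads ran from 32 to 1547 with a median of 58.5, against a median of 408 over the 12866 rows with at least 30 Vec reads. Only 5 rows had 100 or more Vec reads, and in 16 the lowest Vec library had fewer than 10 reads. The median share left in HVEM-KO tumours was 6.58%, and the median log2 ratio (mean CPM + 0.5) was -1.64, against 0.06 over the 12866 rows. Since the rule demanded the fall, these medians describe the choice and support nothing.

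The count of 22 was 0.171% of the rows with enough reads. The mirror rule, with the groups exchanged, found 0 of the 11882 rows with at least 30 HVEM-KO reads. These counts are not on equal terms, since Vec had 5 libraries with about 34767000 reads and HVEM-KO 4 with about 23717000. A minimum of 30 reads is thus a higher level in HVEM-KO tumours, here and for rows absent from a group. In 1.59% of the 12866 rows every HVEM-KO library was below every Vec library, and in 1.38% every HVEM-KO library was above. With 30 or more reads in a group and none in the other there were 10 rows without HVEM-KO reads, 6 of them among the 22, and 5 rows without Vec reads. Single libraries weighed on the count: it rose to 51 on leaving out Vec 2, to 43 on leaving out HVEM-KO 2 and to 57 on leaving out HVEM-KO 4. Under the rule, leaving out an HVEM-KO library can only keep or raise the count. Without Vec 1, 3, 4 or 5 the count was 16 to 18. With Vec 1 and Vec 5 both left out it was 14. The mirror rule found 1 row on leaving out Vec 1 or Vec 5 and 5 on leaving out both. It found 6 on leaving out Vec 2, 5 for Vec 4, 6 for HVEM-KO 2 and 8 for HVEM-KO 4.

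The rule had a sharp edge. Just inside it were Gm34150, Kif26b and Dntt, where the lowest Vec library was 2.06, 2.09 and 2.12 times the highest HVEM-KO library. Just outside were the rows named Edar, Gm13061 and Ccdc80, at 1.97, 1.95 and 1.91 times. The row named Ccdc80, which was placed on Cd200r2, had 479 Vec and 69 HVEM-KO reads, more than 20 of the 22 rows that met the rule.

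**Figure D3:**
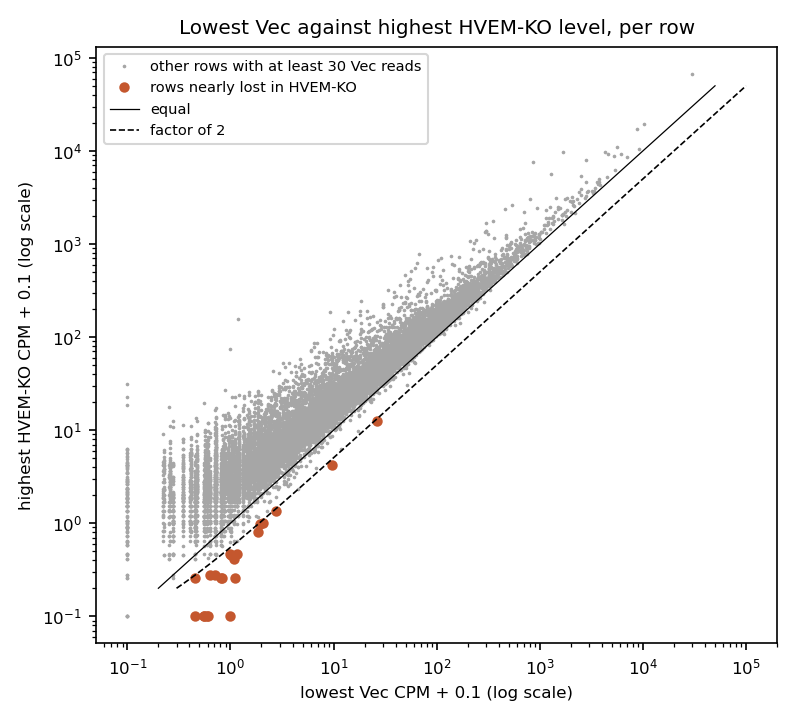
Highest HVEM-KO CPM + 0.1 against lowest Vec CPM + 0.1, both on log scales, for the 12866 rows with at least 30 Vec reads. The 22 rows (orange) lie beyond the dashed line at a factor of 2, 20 of them at under 3 CPM in their lowest Vec library, and Dntt is the highest.

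Over all rows that passed a low-count filter, edgeR's quasi-likelihood test called 0 of 11521 rows between the groups, with 10.6% at an unadjusted p under 0.05 and 5.65% so and lower in HVEM-KO tumours. DESeq2 called 81 rows, of which 66 were lower (0.573% of the rows tested), and limma voom called 0. Only 9 of the 22 rows passed the filter, those with most Vec reads, and the other 13 were not tested. Of the 9, edgeR called 0 and limma voom called 0. All 9 had an unadjusted p under 0.05 in edgeR and were called by DESeq2. The rule used the same contrast, so these counts add nothing to it.

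The rows did not come from a single region. They lay on 13 chromosomes, with at most 3 on any of them, on chromosomes 9 and 18. Distances here are between the GRCm38 starts of the deposited identifiers, not between the displaced positions. Only 2 rows lay within 1 Mb of each other, Gm33936 and Gm34150 on chromosome 15, whose starts are 33832 bp apart. The next closest pair on a chromosome, Prob1 and Lars on chromosome 18, was 6.55 Mb apart.

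The chromosome 15 pair had another neighbour that was low. Gm34150 had 23, 15, 22, 12 and 21 reads in Vec 1 to 5, against 5, 1, 5 and 2 in the HVEM-KO libraries. Its neighbour Gm34093, which starts 0.294 kb further on and was not among the 22, was at 4.99, 2.64, 6.82, 5.82 and 10.1 CPM in Vec and at 0.535, 0.791, 2.40 and 0.904 CPM in HVEM-KO libraries. In all 3 rows Vec 5 was the highest library, and the row before them, Rpl7a-ps3, was at -0.05 on the log2 scale. The displacement of these rows was uncertain (posterior 0.517), and overlapping rows can share a transcript, so the 3 need not be independent.

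The nearest rows on either side with at least 30 Vec reads were mostly level between the groups. Of 42 such flanking rows 24 were lower in the HVEM-KO mean, or 57.1%, where 42.6% of all 12866 rows were. Their median log2 ratio was -0.07. In 3 of the 42, the rows named Opalin, Tbc1d30 and Gm34093, every HVEM-KO library was below every Vec library, as in 1.59% of all 12866 rows. These 3 and the row named Gngt2, next to Abi3 and with 30 Vec reads, were the only flanking rows under -1 on the log2 scale, where 2.14% of all 12866 rows were. The loss thus covered more than 1 row at Dntt, at Wif1 and at the chromosome 15 rows. Rows within the same gene, as at Dntt and at Wif1, can share a transcript and need not be independent. Among the rows compared, the loss was seen elsewhere in a single row or, beside Abi3, also in a thin row whose groups overlapped. Some flanking rows were far off, with starts from -1681.8 kb (Cxcr4, before Gm16081) to 541.96 kb (Tox2, after 9430021M05Rik). Nearer rows with fewer than 30 Vec reads were not compared here, so a loss in them could have been missed.

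**Figure D4:**
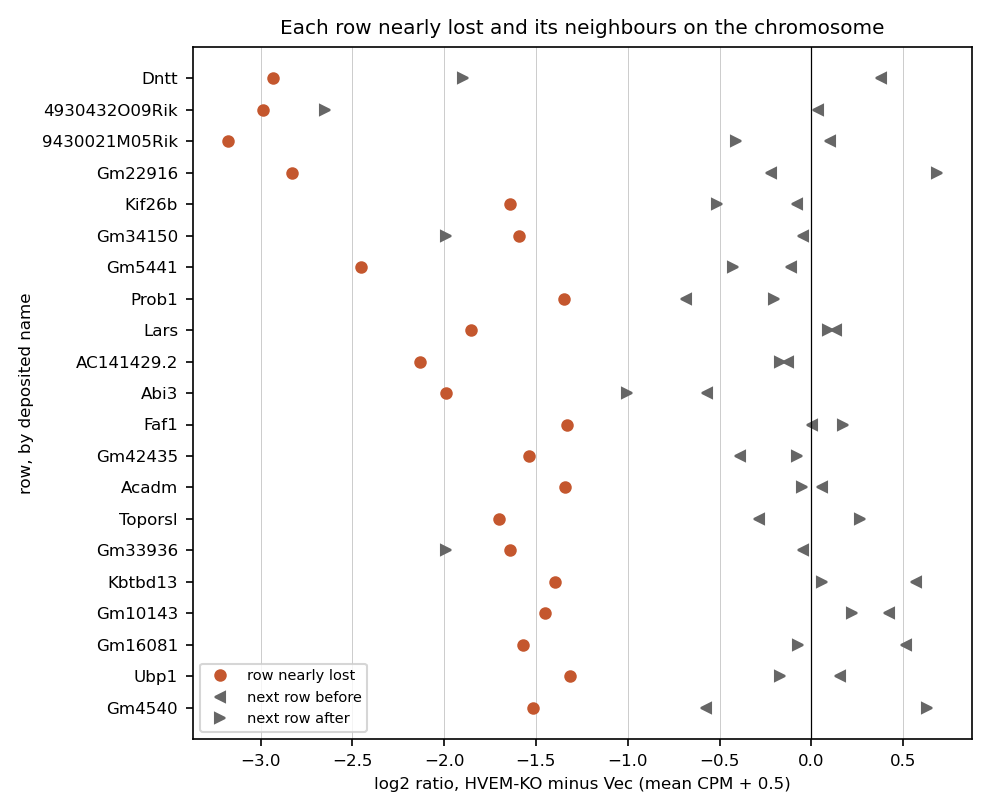
Log2 ratio of HVEM-KO to Vec (mean CPM + 0.5) for 21 of the 22 rows (orange) and for the nearest rows before and after it on the chromosome with at least 30 Vec reads (grey triangles). These rows lie between -3.18 and -1.31, and the flanking rows between -2.65 and 0.68, with a median of -0.07 over all 42.

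The 22 rows also lay less often on protein-coding exons than the rest. The rule did not use position, but positions were inferred from the same reads that the rule used. Of the 16 rows with a settled position 5 overlapped protein-coding exons, or 31.2%, against 80.3% of the 9745 settled rows with at least 30 Vec reads. The share also moves with level. Of the 2300 settled rows with 30 to 99 Vec reads 50.3% overlapped protein-coding exons, and of the 11 such rows among the 22, 3 did. The numbers are small and were not tested.

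Vec 5 was the highest Vec library in 12 of the 22 rows, and Vec 2 in 0 of them, where each was highest in 20.5% and 28.2% of the 12866 rows. Vec 2 was the lowest in 10 of the 22, where it was the lowest in 20.8% of the 12866 rows. Within Vec tumours the median coefficient of variation was 43.6% for the 22 rows and 26.9% for the 12866 rows, which have more reads. Among rows with 30 to 99 Vec reads it was 38.9% for the 17 such rows of the 22 and 48.2% for all 3165. The rule bears on this too, since it asks for a high lowest Vec library. The highest Vec library was 1.59 to 13.8 times the lowest. In HVEM-KO libraries 1 to 4, 8, 13, 11 and 10 of the 22 rows had at least 1 read.

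Summed over the 22 rows, the level was 92.7, 60.1, 128, 80.7 and 131 CPM in Vec 1 to 5 and 5.70, 14.1, 17.6 and 4.16 CPM in HVEM-KO 1 to 4. The Dntt and Wif1 rows made most of the differences among HVEM-KO libraries. Without the 3 rows with most reads the sums were 23.6 to 41.9 CPM in Vec, against 2.88 to 3.80 CPM in HVEM-KO libraries. The latter were nearly even but rest on few reads. Even with those 3 rows, the reads were only 32, 89, 110 and 23 in HVEM-KO 1 to 4. The rule also capped the HVEM-KO level of each row, so this evenness says little.

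These are bulk tumours, in which fewer cells of a type and less RNA per cell cannot be told apart. Of 17 T lineage markers 8 had a placed row, Thy1, Cd3e, Lck and Lat among them. Thy1, a surface marker of T cells, was at 2034 ± 417 CPM in the Vec group and 1482 ± 314 CPM with HVEM-KO, while Cd3e was at 2.86 ± 0.947 and 3.95 ± 1.10 CPM. A placed row may cover as little as 100 bp of a gene's exons. Levels of different markers are thus not comparable, and a low value need not mean low expression. This holds for all the marker lists. Cd4, Cd8a and the receptor constant regions had no placed row. The summed level of the 8 was 3014 to 5373 CPM in Vec, against 2723 to 3527 CPM in HVEM-KO libraries, with 5 of the 8 lower in the HVEM-KO mean. These ranges overlapped. The sums of the 22 rows are not comparable with them, since the rule fixed that those do not overlap. Markers of other cells also differed in their means. Of 13 fibroblast and matrix markers 10 had a placed row and 9 of these were higher in the HVEM-KO mean, with sums from 4594 to 16447 CPM in Vec and from 6046 to 23712 CPM in HVEM-KO libraries. Over all rows with at least 30 Vec reads, 42.6% were lower in the HVEM-KO mean, and markers of the same list need not be independent.

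The part of these markers in the fall of the 22 rows was not tested. All 4 macrophage and all 3 endothelial markers with a placed row were also higher in the HVEM-KO mean, at sums of 33.2 to 95.3 against 63.6 to 165 CPM and of 172 to 338 against 307 to 336 CPM. The neutrophil marker Csf3r (1 of 6 placed) was at 26.3 to 140 against 96.5 to 143 CPM, and 4 of 10 skeletal muscle markers were at 106 to 1546 against 145 to 1064 CPM. The lists of B cells (2 of 7 placed, 7.74 to 18.5 against 7.36 to 20.1 CPM), adipocytes (3 of 7, 8.04 to 19.0 against 11.2 to 31.8 CPM), nerve (1 of 5, 0.158 to 10.9 against 1.11 to 3.56 CPM), erythroid cells (2 of 5, 0.487 to 2.68 against 0.362 to 3.48 CPM) and skin epithelium (4 of 8, 0.122 to 0.630 against 0 to 1.42 CPM) were low, and their ranges overlapped between the groups. Of the markers in these lists Slc4a1 was at 0 in all Vec libraries and Trp63 in all HVEM-KO libraries. Over all libraries Slc4a1 had only 9 reads and Trp63 only 1, so these absences say little.

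**Figure D5:**
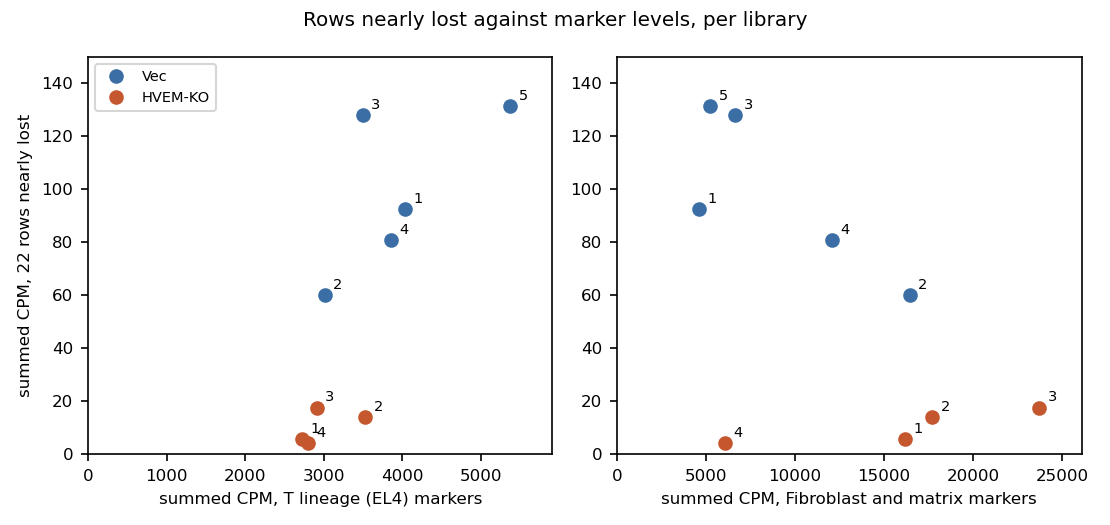
Summed CPM of the 22 rows against the summed CPM of T lineage markers (left) and of fibroblast and matrix markers (right), 1 point per library with its number, Vec in blue and HVEM-KO in orange. The HVEM-KO libraries lie between 4.16 and 17.6 CPM and the Vec libraries between 60.1 and 131 CPM on the vertical axis, a separation that the rule fixed, and the marker sums on the horizontal axes overlap between the groups.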

How the data were processed

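The authors deposited a table of raw counts per gene identifier for 9 tumours. The build is mm10, per the submitters' processing notes, and no source used here names the aligner, the counter or whether strand was used, so overlapping genes on opposite strands cannot be told apart. CPM was computed from column sums. Levels, counts and medians over the 22 rows are descriptions; the rows and the marker lists were chosen with earlier results of these data known. Values by library are given for the 12 rows with most Vec reads, those without HVEM-KO reads and those placed on a protein-coding gene, except 1 row that is not reported here.

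Each row's GRCm38 exons (GENCODE vM21) were moved by up to 2 Mb in steps of 250 bp, and a hidden Markov model (penalty of 20 for each switch) chose the displacement at which overlap with protein-coding exons best accounted for the read totals. It was refined to 10 bp within 250 bp. The log-likelihood gain over a model without overlap was 10659 at the chosen displacements and -10156 at none, both scored with the table fitted at the chosen ones. A position was settled at a posterior of at least 0.99, and a row counted as placed on a gene that held 100 bp or more and 90% or more of its coding overlap, with some overlap remaining on moving it by 100 bp either way. Tested on data simulated from the fitted model for 3 chromosomes, 96.7% of 6837 rows were found within 1000 bp. This simulation took the model as true, and its 1000 bp is wider than the 100 bp tolerance used for genes. It cannot show which exon a row overlapped. The gain per row was 0.166 to 0.282 on single chromosomes and 0.0305 over those 3 chromosomes after shuffling the counts. The 4850 rows without a GRCm38 identifier were not moved.

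Rows past a low-count filter were tested with edgeR 4.0.16 (R 4.3.3; TMM, filterByExpr, robust quasi-likelihood F test, Benjamini-Hochberg adjustment at a false discovery rate of 0.05), without covariates, and with DESeq2 1.42.0 and limma 3.58.1 as alternatives. Other scalings, filters, read minimums and factors, and leaving out libraries, were also tried.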

Additional observations from a re-analysis of the deposited data

Results flagged for a closer look

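A single library lay far from the rest of its group in 5 of 42 sets of values. Chance gives about 1 in 20 for continuous values, a rate that does not hold for sets of a few reads, so the 5 are not set against it. The measure is the distance to its closest neighbour divided by the whole range, called the gap share here. Vec 5 was highest for the row named Kif26b (gap share 0.910; 5.20 CPM, against 2.64 to 2.87 CPM in the other Vec libraries) and for the row named Prob1 (0.942; 4.25 CPM, against 1.99 to 2.12 CPM). Vec 1 was highest for the row named Faf1 (0.762; 2.25 CPM, against 1.06 to 1.34 CPM). In HVEM-KO tumours, where a gap share of 1.0 follows whenever all reads fall in a single library, this was so for the row named AC141429.2 (gap share 1.0; 0.362 CPM in HVEM-KO 4, from 2 reads) and for the row named Gm10143 (1.0; 0.158 CPM in HVEM-KO 2, from 1 read).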

How the results depend on the processing

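The count of 22 rows was 54 with a minimum of 10 Vec reads, 5 with 100, 39 at a factor of 1.5, 11 at a factor of 3 and 14 without Vec 1 and Vec 5, 10 of which were among the 22; leaving out 1 library gave 16 to 57. With TMM sizes, DESeq2 size factors or sizes without mitochondrial rows, 20 to 22 of the same rows remained. The mirror rule gave 8 with 10 reads, 4 at a factor of 1.5, 5 without Vec 1 and Vec 5 and 0 to 8 without 1 library. The median log2 ratio was -3.13 with a pseudocount of 0.1 CPM and -1.09 with 1 CPM. The edgeR count of 0 was 81 with DESeq2, 307 without a low-count filter and 0 to 1 without 1 library. No fitted value of a named row reversed, over 129 values of 11 rows. In each of these rows every Vec library was above every HVEM-KO library, so a reversal was hardly possible and its absence adds nothing. Rows with few reads limit all of this: single reads decide the lowest Vec library in most of the 22. No paired analysis was possible because the replicate numbers follow only the order of the samples.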
